A study of Mus musculus with 6 samples.

Results

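The genes described here encode the sodium, calcium and potassium channels of mouse, with their auxiliary subunits. They were measured on 1-colour arrays in forebrain tissue of single embryos at E11.5. They were chosen by symbol alone: those that begin with Kcn, Cacna, Cacnb or Cacng in the authors' deposited comparison table, and those made of Scn, a number and a or b. That table has 2 symbol columns, one filled for 8604 and the other for 22876 of its 27269 probes, and a match in either column was taken. The rule found 97 genes, of which 10 belong to sodium, 21 to calcium and 66 to potassium channels, among 21191 genes and unnamed probes tested in all. The column filled for fewer probes alone gives 40 of them. Each gene is represented by its brightest probe over the 6 arrays, and for 93 of the 97 that probe was well above background on at least 3 arrays and had a value on all 6.

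The 3 mutant embryos were compared with 3 control embryos. The labels name the groups mutant and control without giving the mutated gene, the allele, a driver line or a strain, and the series title places the study within Wnt/beta-catenin signalling in precursors of the cortex. The tissue is labelled dorsal forebrain, and the design text calls it dorso-medial pallium. Mutant 1 and control 1 shared litter 1 and lay on slide 1, while litters 2 and 3, each with 1 mutant and 1 control, lay on slide 2. The p-values describe the spread between single embryos.

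Between 65.75% and 67.9% of spots on mutant arrays were well above background, against 68.68% to 70.1% on control arrays, and no spot was saturated. Emx1 and Lhx2, transcription factors that mark the dorsal telencephalon, were measured well above background on all 6 arrays. Lhx2 was at 5.32, 5.55 and 5.42 in mutants, against 5.99, 5.97 and 6.08 in controls, and Emx1 at 0.32, 0.65 and 0.34 in mutants, against 0.88, 1.77 and 1.09 in controls. All levels below are log2 signals from which the array's own 75th percentile was subtracted, so that a gene at 0 is as bright as that percentile. Markers of the neighbouring subpallium did not behave alike in the control embryos. The median of 12 subpallial and interneuron genes lay 1.37, 0.86 and 1.97 log2 units from the control mean in mutants, against 1.11, 0.86 and -2.02 in controls, so control 3 stood apart. Leaving out control 3 is therefore given below.

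Voltage-gated sodium channels open on depolarisation and carry the rising phase of the action potential, voltage-gated calcium channels turn depolarisation into calcium entry, and voltage-gated potassium channels repolarise the membrane. Each has a pore-forming alpha subunit and auxiliary subunits that set trafficking and gating. The symbols Kcnj, Kcnk, Kcnm, Kcnn, Kcnt and Kcnu cover other potassium channels, the inward rectifiers, the two-pore leak channels and those opened by calcium or sodium, which are not, or not only, gated by voltage. Of the 97 genes, 41 encode pore-forming subunits of the voltage-gated sodium, calcium and potassium families. Kcnq1ot1 is a noncoding RNA, and Kcnrg encodes a regulator of potassium channels rather than a channel. In the embryonic cortex, channel expression accompanies the passage of dividing precursors to young neurons.

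No channel gene passed the adjusted threshold of 0.05, and the weight of the small differences lay on the side of higher signal in mutants. With limma's test, adjusted over the whole table, 0 of the 93 tested genes passed and the smallest adjusted p was 0.127, while 7 genes, 0.033%, passed over the whole table. At an unadjusted p under 0.05, 20 channel genes were higher and 6 were lower in mutants. These are 21.5% and 6.45% of the 93, beside 9.46% and 7.42% of the whole table. The difference was above 0 for 66 channel genes, 71.0%, beside 55.1% of the whole table. The median difference was 0.158 log2 units, beside 0.025 over the whole table, and single genes ranged from -0.76 to 1.24. The groups did not overlap for 20 of the 93 genes, 21.5%, on the higher side in mutants, beside 12.9% of the whole table. On the lower side they did not overlap for 5 of the 93, 5.38%, beside 11.9%. The arrays measure RNA of the whole tissue piece, so fewer or more cells of a type and less or more RNA per cell cannot be told apart.

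The counts depended on the scaling of the arrays. With the main scaling, 26 genes were under the unadjusted 0.05. With normexp background correction 37 were higher and 3 lower. These are 39.8% and 3.23% of the 93, beside 21.4% and 6.9% of the whole table. With quantile normalization 13 were higher and 6 lower, or 14.0% and 6.45%, beside 6.85% and 9.44%. With arrays centred on their median 12 were higher and 7 lower, or 12.9% and 7.53%, beside 5.13% and 11.1%. Without control 3, 11 were higher and 3 lower, or 11.8% and 3.23%, beside 5.11% and 3.94%. With litter as a block 18 were higher and 5 lower, or 19.4% and 5.38%, beside 12.3% and 7.55%. With slide as a block 20 were higher and 4 lower, or 21.5% and 4.3%, beside 11.7% and 7.88%. Within slide 1, with 1 embryo a group, the median difference of the channel genes was 0.01 and 47 of 93 were above 0. Within slide 2, with 2 embryos a group, the median was 0.30 and 67 of 93 were above 0. Of the 20 genes counted as higher, 18 were higher within slide 1 and 20 within slide 2, and the 6 counted as lower were lower within each slide. When any 1 embryo was left out, all 26 genes had a difference of the same sign, and 14 to 21 of them kept an unadjusted p under 0.05, with the 14 found without control 3. The 26 genes were chosen by their p on these same embryos. Their signs within slides and with 1 embryo left out were therefore largely fixed beforehand and lend no separate support.

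**Figure D1:**
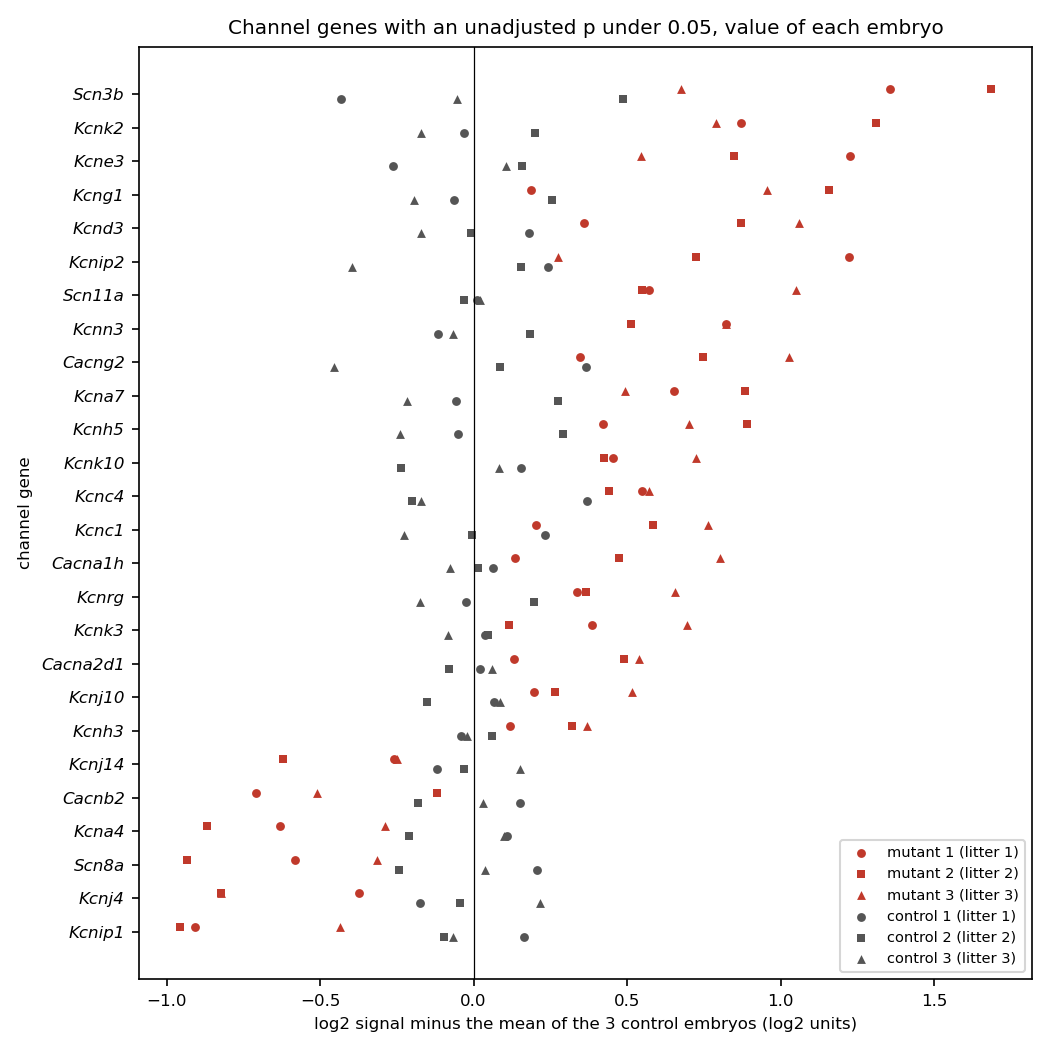
Each row is a channel gene with an unadjusted p under 0.05. The horizontal axis gives the log2 signal of each embryo minus the mean of the 3 controls, red for mutants and grey for controls, with 1 marker shape per litter. The upper 20 genes are higher and the lower 6 lower in mutants. Scn3b at the top differs by 1.24 and Kcnip1 at the bottom by -0.76.

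Among the sodium channels, all 10 genes were tested. A pair of alpha subunits differed in opposite directions. Scn11a, a subunit best known from sensory neurons that carries a persistent current, was at 0.13, 0.11 and 0.61 in mutants, against -0.43, -0.47 and -0.42 in controls. Each mutant lay above the 3 controls, which had an SD of 0.02. The difference was 0.73 ± 0.15 (SE, n = 3 embryos each), 1.65-fold, with an unadjusted p of 0.00315 and an adjusted p of 0.153 in limma. Its probe lies at chr9:119662887-119662946 (mm9, as the authors' table gives it).

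Scn8a, the alpha subunit concentrated at the axon initial segment of mature neurons, was at 1.02, 0.67 and 1.29 in mutants, against 1.81, 1.36 and 1.64 in controls. No mutant reached the lowest control. Its difference was -0.61 ± 0.20 (adjusted p 0.230, limma). A second, dimmer probe of Scn8a gave 0.07, so the lower signal was seen with 1 of its 2 probes. Scn3a, the main alpha subunit of the embryonic brain, was at -0.36, 0.09 and 0.20 in mutants, against -0.27, -0.41 and -0.57 in controls. Mutant 1 lay among the controls and the other mutants above them. The difference was 0.40 ± 0.17 (adjusted p 0.314, limma), and the other probes of Scn3a gave 0.56 and 0.69. Scn1a, a subunit of mature interneurons, differed by 0.20 with no overlap (adjusted p 0.309, limma). The muscle subunit Scn4a differed by -0.16.

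Of the beta subunits, single-span proteins that set sodium channel gating and take part in cell adhesion, Scn3b had the widest difference of any channel gene. Its signal was 0.35, 0.68 and -0.33 in mutants, against -1.44, -0.52 and -1.06 in controls. The groups did not overlap, and in both groups the embryo of litter 2 was the highest. The difference was 1.24 ± 0.34, or 2.36-fold, with an adjusted p of 0.198 in limma, and it stayed between 1.01 and 1.52 when any 1 embryo was left out. The median of the subpallial and interneuron markers was lowest in mutant 2 among mutants and in control 3 among controls. Lhx6, a gene of that list picked after its values were seen, had another order. It was at 0.86, 2.28 and 0.85 in mutants, against -0.49, 0.47 and 0.02 in controls, highest in litter 2 in both groups. Genes outside that list had this order too. Snap25, a neuron marker, was at 2.88, 4.25 and 2.98 in mutants, against 1.69, 2.66 and 2.36 in controls. Slc8a3, a sodium-calcium exchanger, was also highest in litter 2 in both groups. The median of the neuron markers, given below, was not. The part of subpallial cells or interneurons in the Scn3b values was not tested. Scn2b differed by 0.27 and Scn4b by -0.21. The median over the 10 sodium channel genes was 0.14.

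Among the calcium channels, 20 of 21 genes were tested, 3 were higher and 1 was lower in mutants at an unadjusted p under 0.05, and their median difference was 0.20. With litter as a block, which pairs the embryos, 1 was higher and 0 lower: Cacna2d1 kept its call in limma (unadjusted p 0.0338), and Cacna1h, Cacng2 and Cacnb2 did not (0.0647, 0.0972 and 0.0985). The pore subunit Cacna1h, of the low-voltage-activated T type, was at -0.30, 0.04 and 0.37 in mutants, against -0.37, -0.42 and -0.51 in controls. Mutant 1 lay close above the controls and mutant 3 farthest from them, and the difference was 0.47 ± 0.17 (adjusted p 0.270, limma). Cacna1g, another T-type pore subunit, had a signal of -0.90, -2.05 and -2.70 in mutants, against -1.30, -1.31 and -1.27 in controls. The controls lay close together, while mutant 1 lay above them and the other mutants below, and a second probe gave the same order of the mutants, at -1.23, -2.28 and -2.89. Its mean difference of -0.59 was therefore not beyond the spread of the mutants (adjusted p 0.533, limma). Cacna1i, the third T-type subunit, differed by 0.24, the L-type subunit Cacna1d by 0.36 and the P/Q-type subunit Cacna1a by -0.11, none with an unadjusted p under 0.05.

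The alpha 2 delta subunits bring calcium channels to the cell surface. Cacna2d1 was at 0.78, 1.14 and 1.19 in mutants, against 0.67, 0.57 and 0.71 in controls. All mutants lay above the controls, mutant 1 by little. The difference was 0.39 ± 0.13 (adjusted p 0.235, limma), and a second probe gave 0.36. Cacna2d3 and Cacna2d2 differed by 0.53 and 0.24 with overlapping groups. The beta subunits sit on the inner face of the pore and control its traffic. Cacnb2 was at -4.87, -4.28 and -4.67 in mutants, against -4.01, -4.34 and -4.13 in controls, with mutant 2 among the controls, and it differed by -0.45 ± 0.18 (adjusted p 0.285, limma). Cacnb4 and Cacnb1 differed by 0.59 and 0.29 in the other direction.

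Several gamma subunits serve mainly as partners of AMPA-type glutamate receptors. Cacng2, known as stargazin, was at -4.02, -3.62 and -3.34 in mutants, against -4.00, -4.28 and -4.82 in controls. Mutant 1 and control 1 had almost the same signal, so the difference of 0.71 ± 0.26 (adjusted p 0.272, limma) came from slide 2. Cacng5 differed by 0.86 ± 0.38, with groups that narrowly did not overlap (adjusted p 0.332, limma). Without control 3 its difference was 0.48, without litter 3 it was 0.26, and within slide 1 it was 0.06. Cacng8 stood well above background in 0 mutants and in all 3 controls. Its difference of -0.03 changed sign with normexp, at 0.24, and mutant 1 lay above every control, so no direction is given. Cacng1 differed by -0.21 and had a signal well above background in 1 mutant. Cacna1c, another L-type pore subunit, was well above background on 2 control arrays and no mutant array and was not tested.

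**Figure D2:**
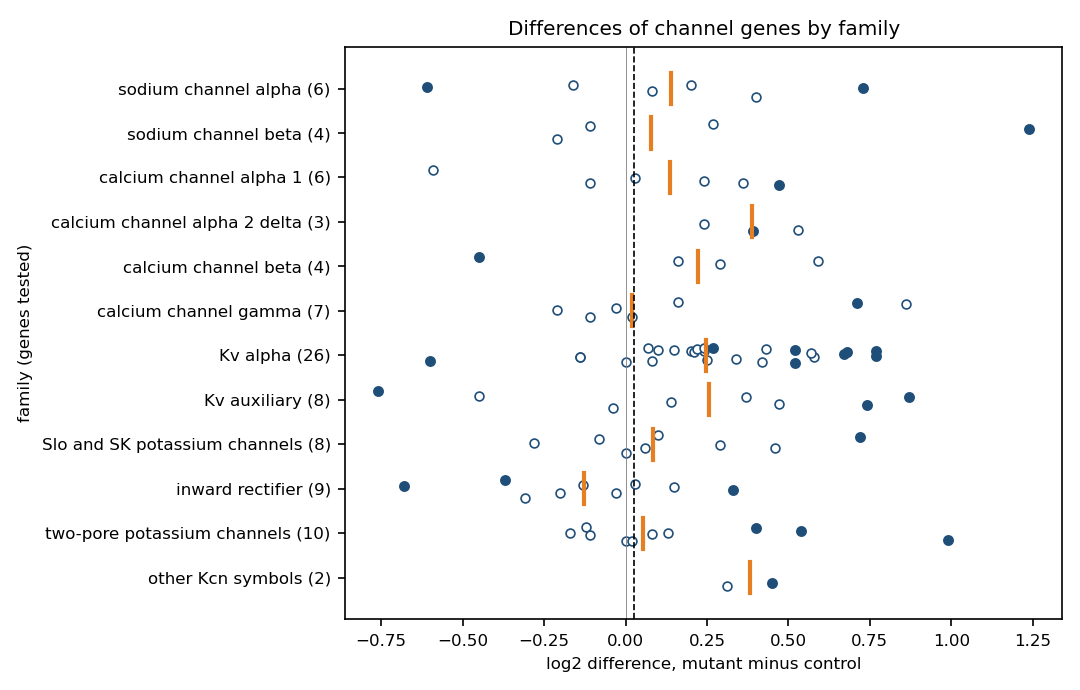
Each point is 1 tested gene, and the horizontal axis gives its log2 difference, mutant minus control. Families run down the page with the number of genes tested. Filled points have an unadjusted p under 0.05, orange bars mark family medians and the dashed line marks the median of all genes tested, 0.025. The 26 Kv alpha genes lie mostly to the right, with a median of 0.25, and the 9 inward rectifiers have a median of -0.13.

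Among the potassium channels, 63 of 66 genes were tested. At an unadjusted p under 0.05, 15 were higher and 4 lower in mutants. These are 23.8% and 6.35%, beside 9.46% and 7.42% of the whole table. The median difference was 0.15. Of the voltage-gated alpha subunits, 23 of 26 tested genes had a difference above 0, with a median of 0.25, which was 0.28 with normexp and 0.16 with median centring. Their median in single embryos was 0.16, 0.28 and 0.36 above the control mean in mutants, against 0.14, -0.02 and -0.17 in controls. Control 1 was thus nearly as high as mutant 1.

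Kcnd3 carries a fast transient current of dendrites. It was at -0.06, 0.45 and 0.64 in mutants, against -0.24, -0.43 and -0.59 in controls. The groups did not overlap, and mutant 1 lay nearest to the controls. The difference was 0.77 ± 0.20, 1.70-fold, with an adjusted p of 0.192 in limma.

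Kcna7, a delayed rectifier known from muscle and heart, was at -2.08, -1.85 and -2.24 in mutants, against -2.79, -2.46 and -2.95 in controls, a difference of 0.68 ± 0.16 (adjusted p 0.180, limma). A second, dimmer probe gave -0.07. Kcnh5, of the ether-a-go-go family, was at -4.88, -4.41 and -4.60 in mutants, against -5.35, -5.01 and -5.54 in controls, a difference of 0.67 ± 0.18 (adjusted p 0.198, limma). That of Kcnh5 was 0.44 with normexp and 0.33 in the authors' log2 values. In both genes every mutant lay above every control.

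Of the channels that let neurons fire fast, Kcnc4 differed by 0.52 with no overlap, but by 0.37 with normexp and 0.18 in the authors' log2 values. Kcnc1 differed by 0.52 with mutant 1 among the controls, and 2 further probes of Kcnc1 gave 0.80 and 0.82. With litter as a block Kcnc1 had an unadjusted p of 0.0862 in limma. Kcng1, a silent subunit that modifies other channels, was higher by 0.77 with overlap, and Kcnh3 by 0.27 without. Kcnq5 and Kcng2 were well above background on 2 control arrays and no mutant array and were not tested.

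Kcna4, an alpha subunit of A-type currents, was the exception among the voltage-gated potassium alpha subunits with an unadjusted p under 0.05. Its signal was 0.78, 0.54 and 1.12 in mutants, against 1.52, 1.20 and 1.51 in controls. Each mutant lay below all controls, the closest being mutant 3. The difference was -0.60 ± 0.17, a signal 1.51-fold higher in controls, with an adjusted p of 0.212 in limma, and it was -0.58 with normexp.

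The auxiliary subunits of these channels split. Kcnip1, a calcium-binding partner of the Kcnd pores, was at -4.89, -4.94 and -4.42 in mutants, against -3.82, -4.08 and -4.05 in controls. No mutant overlapped a control. The difference was -0.76 ± 0.16 (adjusted p 0.156, limma), but with normexp it was -0.28. Kcne3, a single-span subunit that alters the gating of Kcnq pores, was at -1.34, -1.72 and -2.02 in mutants, against -2.83, -2.41 and -2.46 in controls. Mutant 1 and control 1, of the same litter, were the farthest apart. The difference was 0.87 ± 0.21, 1.83-fold, with an adjusted p of 0.176 in limma, and a second probe gave 0.79. Kcnip2, counted among the 20 genes higher in mutants, was well above background on only 2 mutant arrays and 1 control array. Its difference of 0.74 was 0.37 with normexp and rests on signals near background. Kcnab2, a cytoplasmic beta subunit, likewise stood well above background in 0 mutants and 3 controls, and no fold can be given. Kcnab1 lacked a value in mutant 2 and was not tested.

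Of the two-pore channels, which set the resting potential, 3 of 10 were higher and 0 lower at an unadjusted p under 0.05. The shares of the whole table were 9.46% and 7.42%. The family median was 0.05, and -0.05 with quantile normalization. Kcnk2, opened by stretch and lipids, had the smallest p of all channel genes. Its signal was -4.40, -3.96 and -4.48 in mutants, against -5.30, -5.07 and -5.44 in controls. The mutants lay above every control. The difference was 0.99 ± 0.17, 1.98-fold, with an unadjusted p of 0.00137 and an adjusted p of 0.127 in limma. It was 0.57 with normexp and 0.53 in the authors' log2 values. Its probe lies at chr1:191032758-191032817 (mm9).

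Kcnk10, a channel close to Kcnk2, was at 1.32, 1.29 and 1.59 in mutants, against 1.02, 0.63 and 0.95 in controls, a difference of 0.54 ± 0.14 (adjusted p 0.192, limma). The groups did not overlap, and normexp gave 0.47. Kcnk3, an acid-sensitive leak channel, differed by 0.40 but was well above background in only 1 mutant, against 3 controls. Its difference was 0.32 with normexp and 0.12 in the authors' log2 values. With litter as a block its unadjusted p was 0.0729 in limma. The remaining two-pore genes differed by -0.17 to 0.13.

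Among channels opened by calcium or sodium, Kcnn3, a small-conductance channel that follows calcium entry, was at -4.52, -4.83 and -4.52 in mutants, against -5.46, -5.16 and -5.41 in controls. All mutants lay above all controls. The difference was 0.72 ± 0.13 (adjusted p 0.128, limma), and 0.46 with normexp. Kcnn2 of the same family differed by 0.46 and the sodium-activated Kcnt1 by 0.29, each with overlap. The family median was 0.08, and -0.01 with quantile normalization.

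The inward rectifiers hold the membrane near the potassium potential and carry potassium in glia. Of the families shown, theirs was the one median below 0, at -0.13, but with normexp it was 0.11. Kcnj4 was at -4.72, -5.17 and -5.17 in mutants, against -4.52, -4.39 and -4.13 in controls. Every mutant was below every control, mutant 1 by the least. The difference was -0.68 ± 0.17, with an adjusted p of 0.186 in limma, and -0.16 with normexp. Kcnj14 differed by -0.37, and by 0.10 with normexp. Kcnj10, the rectifier of astroglia, lay on the other side, at -0.22, -0.15 and 0.10 in mutants, against -0.35, -0.57 and -0.33 in controls. Every mutant was above every control, and the difference was 0.33 ± 0.12 (adjusted p 0.264, limma). Outside the channel families, Kcnrg differed by 0.45 with no overlap (adjusted p 0.218, limma).

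**Figure D3:**
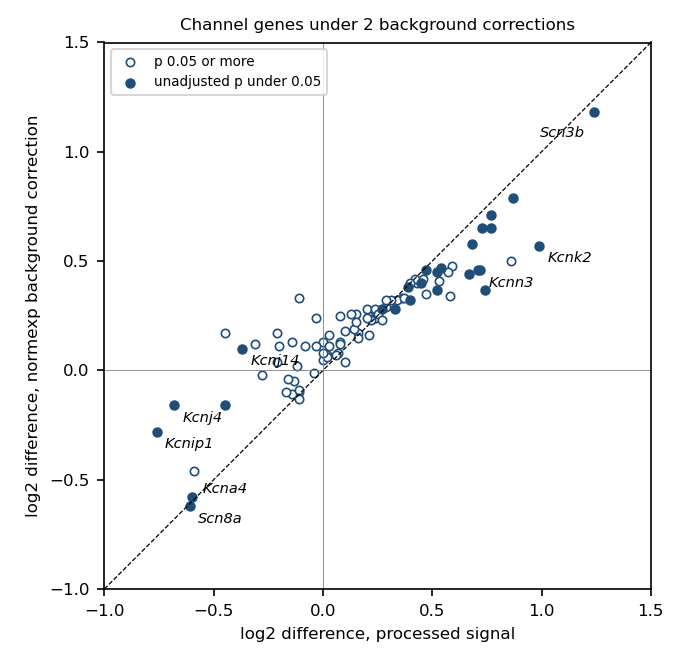
Each point is 1 of the 93 tested channel genes. The horizontal axis gives its log2 difference, mutant minus control, from the processed signal and the vertical axis that after normexp background correction, with the dashed line marking equal values. The signs are the same for 78 of 93 genes. Of the 26 genes with an unadjusted p under 0.05, 24 have a smaller difference in size with normexp, genes higher in mutants among them. Kcna4 and Scn8a keep their differences, while Kcnip1 and Kcnj4 shrink towards 0 and Kcnj14 crosses it.

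Genes with several probes gave a further view of these values. Of 31 other kept probes, for 25 genes, 25 had a difference of the same sign as the chosen probe and 6 the opposite sign. Those of Kcna7 and Scn8a, given above, are among the opposite ones.

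Promoter sequences are shown for the genes with the smallest p in each direction among those with 1 start listed, to set the genes that were higher beside those that were lower. They run from 250 bases before to 50 bases after the start and come from RefSeq on GRCm38.p6, whose positions are not those of the mm9 probes. Capitals mark matches, on either strand, to any of 6 motifs. The TCF/LEF core was searched as CTTTGAT, and its other form as CTTTGTT. The E-box was searched as CAGCTG, and its other form as CATCTG. The GC box was searched as GGGCGG, and the TATA box as TATAAA. Kcnn3 (chr3:89519914-89520213, plus strand) and Scn11a (chr9:119825407-119825706, minus strand) were higher in mutants. Kcnj4 (chr15:79505192-79505491, minus strand) and Kcna4 (chr2:107290339-107290638, plus strand) were lower.
Kcnn3: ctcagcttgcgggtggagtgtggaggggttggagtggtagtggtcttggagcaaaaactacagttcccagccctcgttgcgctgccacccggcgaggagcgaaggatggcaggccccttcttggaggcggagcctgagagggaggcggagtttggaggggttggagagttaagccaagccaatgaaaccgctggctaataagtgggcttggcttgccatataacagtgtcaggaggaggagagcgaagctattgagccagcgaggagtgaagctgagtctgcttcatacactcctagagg
Scn11a: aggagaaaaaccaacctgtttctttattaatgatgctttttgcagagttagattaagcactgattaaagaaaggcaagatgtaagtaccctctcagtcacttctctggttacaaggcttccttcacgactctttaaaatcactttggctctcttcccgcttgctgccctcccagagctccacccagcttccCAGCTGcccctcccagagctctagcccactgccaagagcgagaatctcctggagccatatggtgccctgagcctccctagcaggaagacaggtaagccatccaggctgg
Kcnj4: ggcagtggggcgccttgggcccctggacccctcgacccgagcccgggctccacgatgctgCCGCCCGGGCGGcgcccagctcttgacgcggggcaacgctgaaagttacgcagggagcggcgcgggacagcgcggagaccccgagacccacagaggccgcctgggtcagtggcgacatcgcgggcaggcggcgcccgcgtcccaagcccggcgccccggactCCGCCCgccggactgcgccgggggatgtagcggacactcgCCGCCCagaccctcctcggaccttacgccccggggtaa
Kcna4: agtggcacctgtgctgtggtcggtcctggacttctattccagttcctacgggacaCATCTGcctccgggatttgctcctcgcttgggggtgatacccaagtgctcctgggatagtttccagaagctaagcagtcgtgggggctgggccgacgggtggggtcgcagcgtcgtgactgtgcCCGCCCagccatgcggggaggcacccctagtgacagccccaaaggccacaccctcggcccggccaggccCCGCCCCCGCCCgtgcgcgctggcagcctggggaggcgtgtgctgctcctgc
Kcnn3 had no match, Scn11a had 1 E-box, and Kcnj4 and Kcna4 had 4 matches each, mostly GC boxes. Over 96 promoters of the 70 channel genes found in the table, GGGCGG was present in 46.9%, against 35.7% of all 32851 promoters, and the median GC content was 60.0%, against 52.7%. CAGCTG was present in 20.8%, against 16.3%, and CATCTG in 19.8%, against 17.2%. TATAAA was present in 5.21%, against 13.6%. CTTTGAT was present in 1.04% of channel promoters, against 3.73%, and CTTTGTT in 6.25%, against 5.85%. A match is a run of letters and not a site shown to be bound.

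The channel genes were set beside markers of cell types of the tissue piece. The median of the 93 genes was 0.13, 0.17 and 0.30 above the control mean in mutants, against 0.07, -0.01 and -0.05 in controls. The median of 22 neuron markers was 0.06, 0.42 and 0.58 in mutants, against 0.12, -0.01 and -0.10 in controls, and 21 of the 22 had a difference above 0. In both lists mutant 3 was the highest embryo and control 3 the lowest. The median of 8 basal progenitor markers was 0.23, 0.44 and 0.55 in mutants, against 0.03, 0.00 and 0.01 in controls, and that of 11 radial glia markers 0.16, 0.31 and 0.25 in mutants, against -0.03, 0.04 and 0.01 in controls. Markers of meninges and head mesenchyme had medians of 0.89, -0.24 and -0.72 in mutants, against 0.14, 0.00 and -0.11 in controls. Other lists had a median difference below 0, but not in every mutant. Of 9 microglia and macrophage markers and 9 erythroid markers, 0 had a difference above 0, with medians of -0.296 and -0.300. The microglia list was at 0.13, -0.53 and -0.46 in single mutants, against 0.12, 0.08 and -0.19 in controls. The erythroid list was at 0.05, -0.02 and -0.95, against -0.06, -0.07 and 0.11. Endothelial and pericyte markers each had a median of -0.124, with 4 of 9 and 1 of 6 above 0. Their medians in mutants were 0.24, 0.02 and -0.51, and 0.01, 0.09 and -0.11. In each of these lists except microglia, mutant 3 was the mutant farthest below the control mean. The part of these cell types in the channel values was not tested. Relative to the range of the 3 controls, mutant 1 was above it for 39 of the 93 channel genes, mutant 2 for 49 and mutant 3 for 55. These are 41.9%, 52.7% and 59.1%, beside 34.6%, 35.9% and 38.6% of the whole table.

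**Figure D4:**
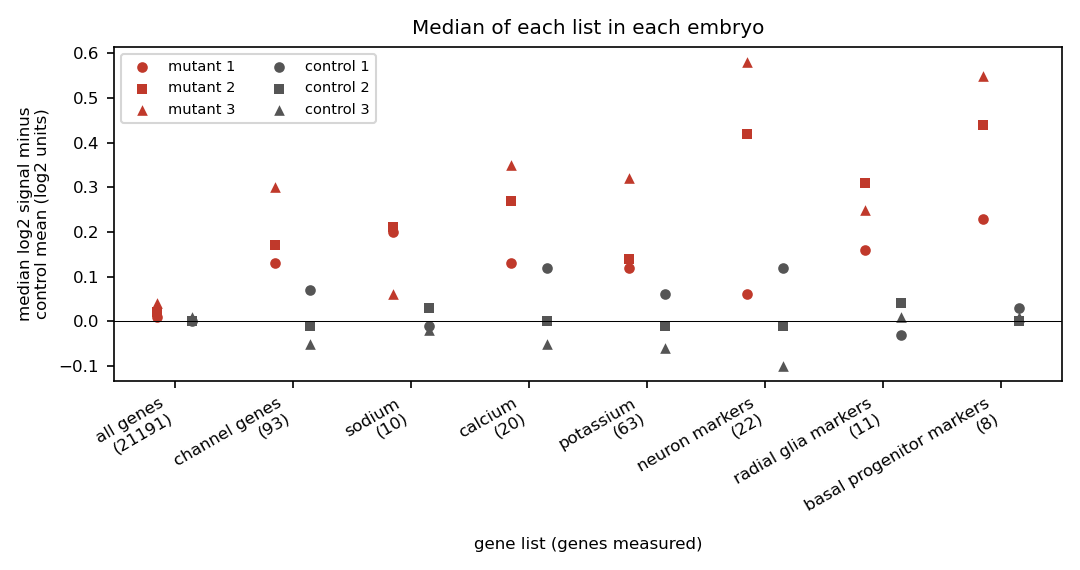
For each gene list, the vertical axis gives the median over its genes of the log2 signal minus the control mean, for each mutant (red, left) and each control (grey, right), with 1 marker shape per litter. The channel genes lie at 0.13, 0.17 and 0.30 in mutants and between -0.05 and 0.07 in controls. The neuron markers of mutant 1, at 0.06, lie among the controls.

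Related gene lists outside the symbol rule were described in the same way. Of 35 tested partner proteins of these channels, 6 were higher and 1 lower at an unadjusted p under 0.05, with a median of 0.19. These are 17.1% and 2.86%, beside 9.46% and 7.42% of the whole table. Unc79, a subunit of the sodium leak channel complex, differed by 0.69 and Lrrc38, an auxiliary of the calcium-activated Kcnma1 channel, by 0.26. Dlg1, a scaffold that clusters potassium channels, differed by -0.44 (adjusted p 0.164, limma). Of 26 tested subunits of ligand-gated channels, 6 were higher and 2 lower, or 23.1% and 7.69%, with a median of 0.29. Gria3, an AMPA receptor subunit, was at -3.49, -3.10 and -3.41 in mutants, against -4.42, -4.40 and -4.90 in controls. Every mutant lay above every control, with a difference of 1.24 ± 0.18 (adjusted p 0.105, limma). Grin3a, an NMDA receptor subunit, differed by 0.79 and Gabrb2, a GABA-A receptor subunit, by 0.49.

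Of 21 tested ion pumps and cotransporters, 3 were higher and 0 lower, with a median of 0.15. These are 14.3% and 0.0%, beside 9.46% and 7.42% of the whole table. The 3 higher were Slc8a3, a sodium-calcium exchanger, with a difference of 1.35, Atp2b4, a plasma membrane calcium pump, with 0.38, and Slc12a4, a potassium-chloride cotransporter, with 0.35. Of 38 tested other cation and chloride channels, 3 were higher and 2 lower, with a median of 0.07. Their shares, 7.89% and 5.26%, were below those of the whole table. Trpc1 differed by 0.48, while the acid-sensing Asic2 differed by -0.36 and the proton channel Hvcn1 by -0.32.

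The authors' deposited table gives an fdr for 74 of the 97 channel probes. Of these probes of the authors' deposited table, 0 had an fdr under 0.05, where 3.11% of all probes with an fdr and 1.31% of all probes had one. Under 0.1 there were 9, which are 12.2% of the 74 and 9.28% of the 97, where 13.5% of all probes with an fdr and 5.68% of all probes had one in the authors' deposited table. The smallest fdr in the authors' deposited table was 0.0508, for Kcnip1, followed by 0.0533 for Scn11a. The median log2 ratio of the channel probes in the authors' deposited table was 0.067, beside -0.016 over that whole table.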

How the data were processed

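Total RNA of 6 single embryos was hybridised to Agilent 1-colour (Cy3) arrays. The authors deposited spot intensities, background-subtracted within each array by Feature Extraction 10.7.3.1 and not normalized between arrays, and flags of 0 or 1 per spot, per the file headers. A whole-series table that the authors deposited holds log2 values, a log2 ratio, a p-value and an fdr per probe, used by group only. The submitters' processing notes name limma; the sources used here do not say how that table's columns were made comparable.

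For the present tests, outlier spots were dropped, spots of a probe averaged, and log2 processed signal scaled by the 75th percentile of each array. A probe was kept if it had a value on all 6 arrays and was well above background on 3 or more, and 1 was used per gene. The 2 groups were tested in R 4.3.3 with limma 3.58.1 (lmFit, eBayes), two-sided, with Benjamini-Hochberg adjustment over 21191 rows and a threshold of 0.05. Tables were handled in Python 3.11.15 with pandas 2.3.3 and numpy 2.4.6, and figures drawn in matplotlib 3.10.9. The fit was tested on simulated data. The number of arrays limits the precision.

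A symbol match in either column of the authors' table made a gene a member. The members and lists were chosen with earlier results of these data known. Genes are named by rule: any past the adjusted threshold; up to 12 higher and 12 lower of smallest p without overlap; up to 3 per family; all sodium channel genes; genes above background in only 1 group; and up to 3 per list. Named after their values were seen were Kcnc1, Kcng1, Kcnh3, Cacna1g and Cacna1a, the untested genes, Emx1, Lhx2, Lhx6, Snap25 and Kcnq1ot1. Some genes that the rule names are not reported here.

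The titles give the litter that a mutant and a control share, and this pairs them. Deviations of a mutant and a control from their groups' means had correlations of 0.308, 0.359 and 0.109 inside litters 1, 2 and 3, and of -0.41 to 0.105 across litters. The alternatives were normexp (offset 50) on the median signal and median background, quantile normalization, median centring, no filter, a filter on all 6 arrays, averaging a gene's probes, a block for litter or slide, values within each slide, trend with robust variance, the authors' log2 values, and omission of each embryo. Added after seeing the data were the sparser symbol column alone, omission of litter 3, and litter as a block together with a trended, robust variance.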

Additional observations from a re-analysis of the deposited data

How the results depend on the processing

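Channel genes past the adjusted threshold numbered 0 under every alternative fitted with limma, with smallest adjusted p from 0.0503 (normexp) to 0.506 (without litter 3). The count of channel genes higher in mutants at an unadjusted p under 0.05 was 20 of 93. The sparser symbol column alone gave 8, but of only 40 genes tested. With all 93 genes the count was 37 with normexp (21.4% of the whole table then) and 13 with quantile normalization (6.85%). It was 12 with median centring (5.13%) and 8 without litter 3 (4.75%). Omitting 1 embryo gave 11 to 35, with 35 without mutant 1 (12.7% of the whole table), 12 without mutant 3 (8.28%), 12 without control 2 (7.4%) and 11 without control 3 (5.11%). The lower count, 6, was 3 with normexp and 3 to 7 when 1 embryo was omitted (3 without control 1 and 3 without control 3, beside 5.66% and 3.94%). With the sparser symbol column it was 3 of 40. The median of channel genes was 0.01 within slide 1 and 0.30 within slide 2. That of sodium channel genes was 0.23 with normexp, 0.04 with quantile normalization, 0.05 with median centring and 0.27 for the 3 genes of the sparser column. That of calcium channel genes was -0.06 within slide 1, 0.34 within slide 2 and 0.05 without litter 3, and that of potassium channel genes, 0.15, was 0.32 within slide 2, 0.07 within slide 1, 0.08 with quantile normalization, and 0.06 with median centring and in the authors' log2 values. The litter as replicate block, the paired fit, left 18 higher and 5 lower. It kept 21 of the 26 genes under an unadjusted 0.05, brought 2 others under it, and changed no adjusted call of a channel gene. The fitted differences are the same with and without this block, so no sign could change.

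Single genes changed sign within slide 1 (Cacna1d -0.12, Cacna1g 0.40, Cacna2d3 -0.21, Cacnb1 -0.05, Cacnb4 -0.08, Cacng1 0.16, Cacng2 -0.02, Cacng8 0.11, Kcnc1 -0.03, Kcnn2 -0.28, Kcnt1 -0.53, Scn3a -0.08). They did so with normexp (Cacng1 0.17, Cacng8 0.24, Kcnab2 0.17, Kcnj14 0.10, Scn4b 0.04), in the authors' log2 values (Cacng8 0.01) and without litter 3 (Cacng8 0.04, Kcnt1 -0.03). With 1 embryo omitted, Cacng1 ranged from -0.33 to 0.02, Cacng8 from -0.23 to 0.11 and Scn4b from -0.42 to 0.01. Gria3 passed the adjusted threshold with normexp (0.0292) and with trend and robust variance (0.0496). The cause was not tested.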
